A study of Mus musculus with 48 samples.

Results

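The striatum was compared with the habenula across the day in male C57BL/6 mice, from the 12 striatum (STR) arrays and the 12 habenula (HAB) arrays among the 48 arrays of a study of the brain's dopamine system. The other arrays were of the prefrontal cortex (PFC) and of a midbrain piece with the dopamine neurons of the substantia nigra and ventral tegmentum (SN/VTA), and they enter below only as levels beside those of STR and HAB. The labels give no treatment, and the mice lived in light from Zeitgeber time (ZT, hours after lights on) 0 to 12 and in darkness after it, and their age is not given in the sources used here. Both tissues were collected at ZT 3, 7, 11, 15, 19 and 23 in each of 2 successive 24-h cycles, which began at ZT11, so that replicate 1 is the first cycle and replicate 2 the second. Each array carried total RNA pooled from 3 mice killed at the same time, and the labels do not say whether the STR and HAB pools of a time came from the same animals. The tissues were cut from both sides of chilled coronal slices, so a pool holds whatever neighbouring tissue came with the cut. The difference of a gene is its STR minus its HAB log2 level, paired by ZT and cycle over 12 pairs, so a positive difference means a higher level in STR.

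The striatum is the main input station of the basal ganglia. Nearly all of its neurons are GABA-releasing medium spiny neurons, which receive dopamine from the midbrain through the receptors Drd1 (the direct pathway) or Drd2 (the indirect pathway). The habenula is a small nucleus above the thalamus with a medial part, whose neurons release acetylcholine, glutamate or tachykinins onto the interpeduncular nucleus, and a lateral part, which sends glutamate towards the cells that restrain dopamine neurons. It lies against the third ventricle with its choroid plexus, next to the thalamus and beneath the hippocampus. Since these were bulk samples, fewer cells of a type and less RNA per cell cannot be told apart.

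The deposited values were taken as log2 levels of the probe sets of an Affymetrix Mouse Gene 2.0 ST array, and 17274 genes passed a filter on their mean over all 48 arrays. The 2 arrays of a tissue at one time had a correlation r from 0.982 to 0.991 over these genes, a STR with a HAB array from 0.937 to 0.959, and all 24 arrays correlated best with an array of their own tissue. The median difference over all genes was -0.013. A gene was called when limma's paired test gave an adjusted p under 0.05 (Benjamini-Hochberg over all genes tested) together with a log2 difference of at least 1. No background measure was used, so a fold is a lower bound where the lower level lies near background, and precision is limited by how many arrays there are.

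Of the 17274 genes, 222 (1.29%) were higher in STR and 369 (2.14%) were higher in HAB, so that 591 (3.42%) were called in all. Among the 222, 219 had the same direction in all 12 pairs and 213 had every STR array above every HAB array. Among the 369, 359 had the same direction in all pairs and 345 had every HAB array above every STR array. Over all genes tested, the 12 STR arrays lay wholly above the 12 HAB arrays for 1123 genes (6.5%) and wholly below them for 1903 (11%). By the adjusted p alone, 5463 genes (31.6%) were higher in STR and 6293 (36.4%) in HAB, most of them by less than the size a call asks for. The named genes with the largest positive differences were Meis2, Penk, Drd1, Rxrg and Drd2, all known for striatal neurons. The largest negative difference was that of a predicted gene, Gm5741 (-5.07, adjusted p = 3.76e-17), with means of 5.90 in STR and 10.97 in HAB. Predicted genes were passed over in choosing which genes to describe, and those next in size were Chrna3, Ttr, Nwd2, Nrn1 and Neurod6, of which Ttr marks choroid plexus and Neurod6 and Nrn1 are known from hippocampal and cortical neurons.

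**Figure D1:**
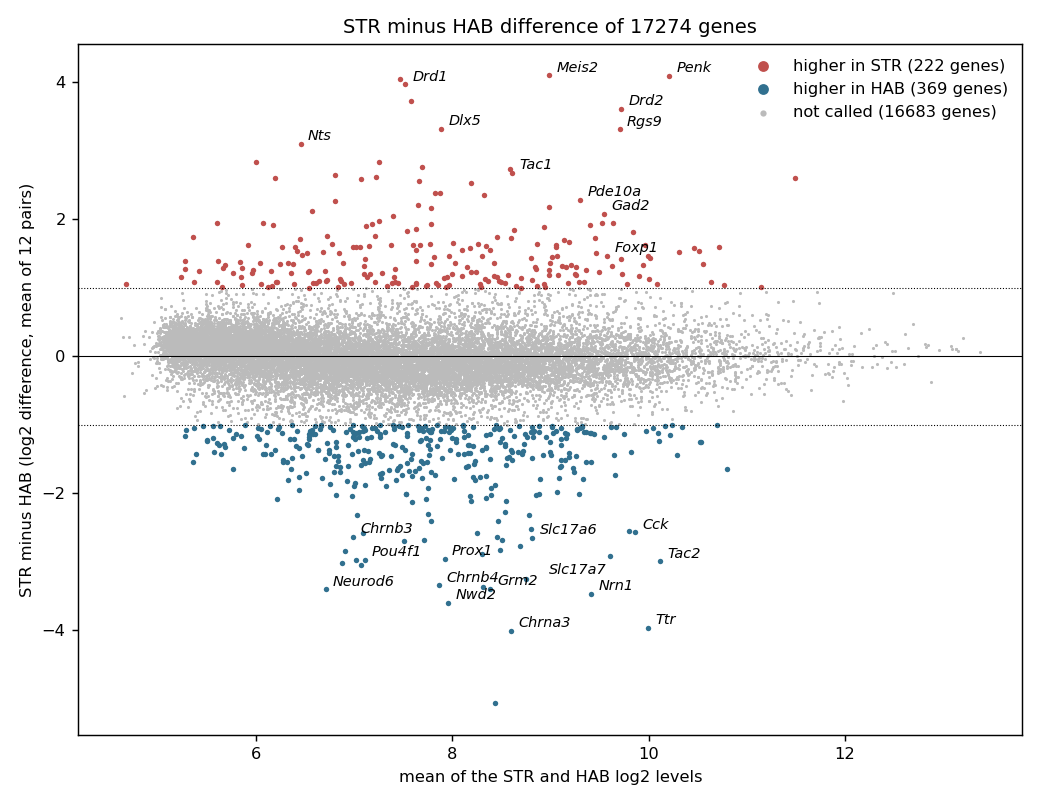
STR minus HAB log2 difference (vertical axis, mean of 12 pairs) against the mean of the STR and HAB log2 levels (horizontal axis) for 17274 genes; red, 222 genes higher in STR; blue, 369 genes higher in HAB; grey, genes not called; dotted lines, a difference of 1 in size. Meis2 and Penk lie at the top with differences of 4.10 and 4.09, and Gm5741, Chrna3 and Ttr at the bottom with -5.07, -4.01 and -3.97.

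Among the dopamine receptors, Drd1, Drd2 and Drd3 were higher in STR. The level of Drd1 was 9.36, 9.49 and 9.71 in STR arrays (lowest, median and highest), against 5.02, 5.61 and 5.86 in HAB arrays. The lowest STR array was thus far above the highest HAB array, and Drd1 was higher in STR by 15.7-fold (log2 difference 3.97 ± 0.072 SE, adjusted p = 4.12e-16). Drd2 ran from 11.36 to 11.72 with a median of 11.54 in STR arrays, against 7.16 to 8.67 with a median of 8.02 in HAB arrays. It also separated the tissues in full, with 12.2-fold (log2 difference 3.61 ± 0.11 SE, adjusted p = 1.24e-13), and its mean was 7.41 in PFC and 10.01 in SN/VTA, where it is an autoreceptor of dopamine neurons. Drd3, the receptor of the ventral striatum and the islands of Calleja, was higher in STR by 3.79-fold (log2 difference 1.92 ± 0.071 SE, adjusted p = 1.38e-12). Of the 5 dopamine receptor genes tested 3 were higher in STR and 0 in HAB, with a median difference of 1.92. The other members were Drd5, with a difference of -0.57 (adjusted p = 5.09e-07), and Drd4, with 0.19 (adjusted p = 0.0228), both short of the size of a call.

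The peptides that distinguish the 2 kinds of medium spiny neuron were both far above their HAB levels. Penk, which encodes the enkephalins of the indirect pathway, had levels from 12.12 to 12.35 with a median of 12.28 in STR arrays, against 7.48 to 8.71 with a median of 8.13 in HAB arrays. No array of one tissue reached the range of the other, and the difference was 17.1-fold (log2 difference 4.09 ± 0.09 SE, adjusted p = 3.25e-15). Tac1, which encodes substance P of the direct pathway, ran from 9.79 to 10.15 with a median of 9.94 in STR arrays, against 6.84 to 7.62 with a median of 7.31 in HAB arrays, a difference of 6.41-fold (log2 difference 2.68 ± 0.057 SE, adjusted p = 2.34e-15). Pdyn, which encodes dynorphin in the same neurons, was higher in STR by 3.07-fold (log2 difference 1.62 ± 0.069 SE, adjusted p = 9.07e-12). Of 9 genes listed for direct-pathway neurons, 6 were higher in STR and 0 in HAB, with a median of 1.97. They included Slc35d3, needed for Drd1 to reach the cell surface (2.27), the transcription factor Isl1 (2.11) and Chrm4, the muscarinic receptor that opposes Drd1 signalling (1.97). The other 3 were Sfxn1 (0.071) and the transcription regulators Eya1 (-0.68) and Ebf1 (-0.59), and by the adjusted p alone Eya1 and Ebf1 were higher in HAB. Of 7 tested genes of indirect-pathway neurons, 5 were higher in STR and 0 in HAB, with a median of 2.18, among them the orphan receptors Gpr6 (2.59) and Gpr52 (2.18) and the transcription factor Sp9 (1.53). Adora2a was not analysed here.

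**Figure D2:**
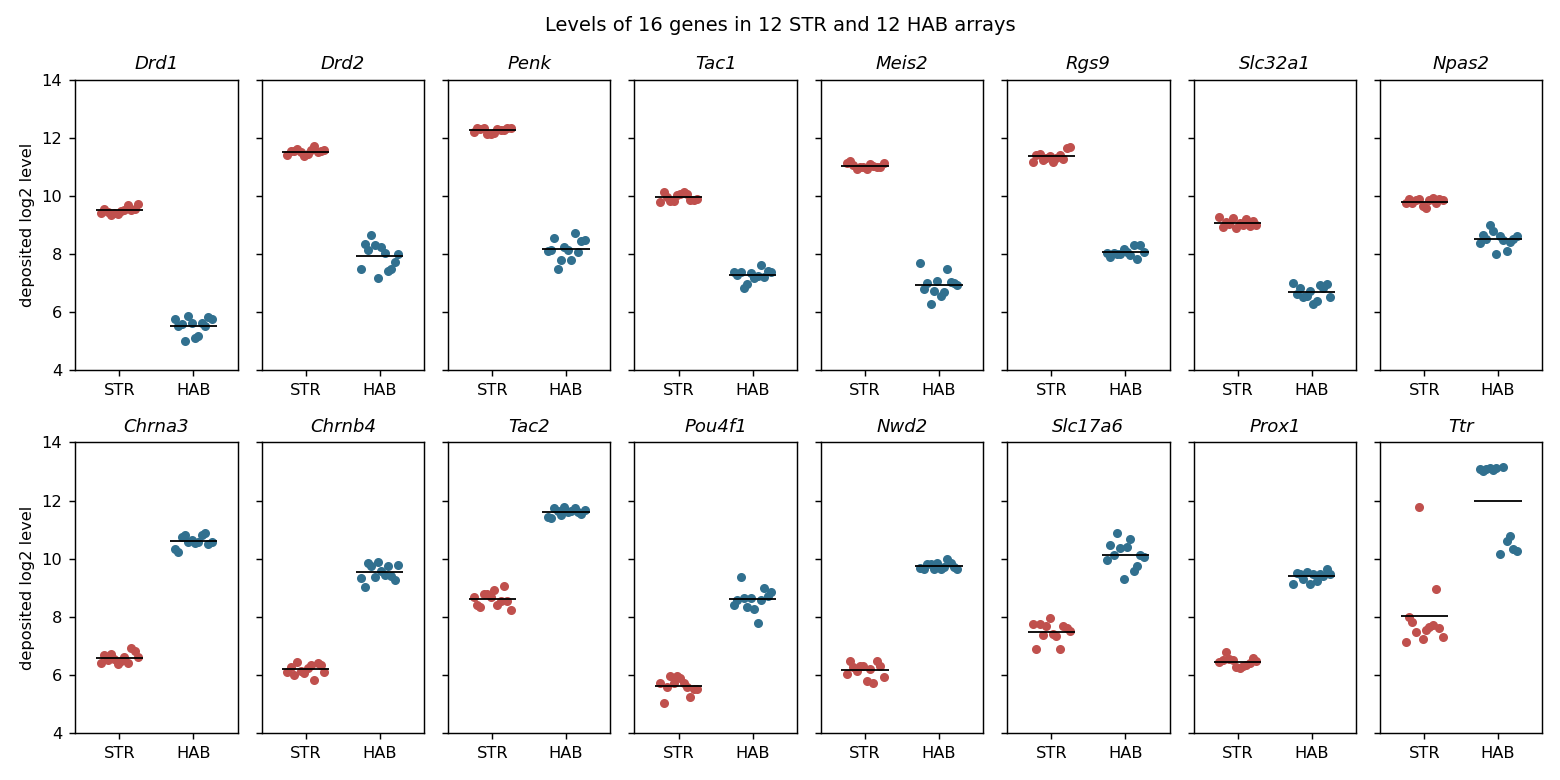
Deposited log2 levels (vertical axis) of 8 genes higher in STR (upper row) and 8 higher in HAB (lower row) in each of 12 STR arrays (red, left) and 12 HAB arrays (blue, right), in order of sampling from left to right within a tissue; bars, means. The tissues do not overlap for 15 of the genes, while Ttr falls into 2 levels among the HAB arrays and 1 STR array reaches 11.79.

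Most of the listed genes that carry dopamine signals inside medium spiny neurons were higher in STR. Of 16 tested genes of this list 11 were higher in STR and 0 in HAB, all 16 had every STR array above every HAB array, and the median was 1.57. Rgs9, which speeds the end of G protein signals in these neurons, ran from 11.16 to 11.67 with a median of 11.34 in STR arrays, against 7.83 to 8.33 with a median of 8.03 in HAB arrays. The spread among arrays was small beside the gap, and the difference was 9.92-fold (log2 difference 3.31 ± 0.048 SE, adjusted p = 4.11e-17). Pde10a, which breaks down cyclic AMP and cyclic GMP, differed by 2.29 ± 0.044 (SE), the adenylyl cyclase Adcy5 by 1.94 ± 0.051, the small GTPase Rasd2 by 1.95 ± 0.042, the sodium channel subunit Scn4b by 2.76 ± 0.079 and the actin cross-linker Actn2 by 2.17 ± 0.073. The mean level of the list per array lay between 9.78 and 10.02 in STR arrays and between 8.14 and 8.36 in HAB arrays. Ppp1r1b (DARPP-32), Dgkb and Itpr1 were not analysed here.

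Of 17 tested transcription factors that specify striatal neurons, 10 were higher in STR and 0 in HAB, with a median of 1.07. By the adjusted p alone 16 were higher in STR and 1 in HAB, the last with a difference of -0.96. With the 5 pairs whose HAB array was low for choroid plexus genes, described below, 10 were called in STR and 1 in HAB. Meis2, a homeobox factor of the lateral ganglionic eminence, had levels of 10.92, 11.01 and 11.20 in STR arrays (lowest, median and highest), against 6.29, 6.95 and 7.71 in HAB arrays, and the difference was 17.2-fold (log2 difference 4.10 ± 0.092 SE, adjusted p = 3.85e-15). The retinoid receptors Rxrg and Rarb, which act together on striatal genes, were higher in STR by 13.3-fold (log2 difference 3.73) and 5.22-fold (2.38). Dlx5 and Dlx6, neighbouring homeobox genes of GABA-releasing forebrain neurons, differed by 3.32 ± 0.065 and 2.64 ± 0.10 (SE), and Foxp1, a regulator of medium spiny neuron identity, by 1.47 ± 0.04. In all 3 of Meis2, Rxrg and Dlx5 the ranges of the tissues did not overlap. Lhx8, a factor of striatal cholinergic neurons, was higher in STR by 1.94 ± 0.062 and Sst, a peptide of striatal interneurons that the lateral habenula list also holds, by 1.35 ± 0.091. Of 12 interneuron genes 2 were higher in STR (Lhx8 and Sst) and 1 in HAB (Zic1, -1.05). The cholinergic genes Chat, Slc5a7 and Slc18a3, named here after their values were seen because both tissues hold cholinergic neurons, had differences of 0.10 for Chat, 0.010 for Slc5a7 and 0.12 for Slc18a3, with none past the threshold.

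The promoters of Drd2 and Tac1, a receptor of the indirect and a peptide of the direct pathway, are shown because both genes separate the tissues in full and their windows differ in composition. Each window runs from 250 bases before to 50 bases after the RefSeq start on GRCm38.p6: Drd2 at chr9:49340153-49340452 on the plus strand, with capitals on its 2 GGGCGG motifs (GC boxes, either strand), and Tac1 at chr6:7554811-7555110 on the plus strand, with capitals on its single CACGTG motif (an E-box).
Drd2: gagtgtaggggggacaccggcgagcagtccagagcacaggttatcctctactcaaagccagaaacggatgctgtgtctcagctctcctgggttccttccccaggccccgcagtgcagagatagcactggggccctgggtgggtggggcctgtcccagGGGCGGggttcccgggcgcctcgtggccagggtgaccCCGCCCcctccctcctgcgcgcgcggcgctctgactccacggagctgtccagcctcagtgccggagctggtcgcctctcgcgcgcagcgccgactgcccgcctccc
Tac1: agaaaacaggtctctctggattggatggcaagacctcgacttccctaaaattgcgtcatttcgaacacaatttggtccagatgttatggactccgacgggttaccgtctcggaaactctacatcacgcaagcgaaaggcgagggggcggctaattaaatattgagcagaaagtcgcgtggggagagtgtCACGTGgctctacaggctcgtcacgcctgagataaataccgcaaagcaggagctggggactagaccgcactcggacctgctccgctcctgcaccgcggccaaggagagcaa
GC made up 70.3% of the Drd2 window and 54.0% of the Tac1 window. GGGCGG occurred in 35.7% of the 32851 promoters of the RefSeq table, in 95 of 159 genes higher in STR with an entry (59.7%), in 178 of 274 genes higher in HAB (65.0%) and in 7733 of 12941 other tested genes (59.8%). CACGTG occurred in 7.2% of all promoters, in 13.2% of the genes higher in STR, in 10.9% of those higher in HAB and in 10.6% of the other tested genes. The Tac1 window also held 1 GGGCGG, left in lower case, and no motif overlapped another. These matches describe the letters of the windows, and the shares of the called genes lie near those of the other genes tested.

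Genes that make and load GABA were higher in STR, and 2 vesicular glutamate transporters were higher in HAB. Slc32a1, which loads GABA into vesicles, ran from 8.91 to 9.28 with a median of 9.05 in STR arrays, against 6.29 to 6.99 with a median of 6.67 in HAB arrays, and was higher in STR by 5.24-fold (log2 difference 2.39 ± 0.06 SE, adjusted p = 1.13e-14). Gad2 and Gad1, the enzymes that make GABA, differed by 2.08 ± 0.10 and 1.34 ± 0.081 (SE), so that 3 of 5 tested genes of GABA synthesis and transport were higher in STR and 0 in HAB, with a median of 1.34. Slc17a7, the vesicular glutamate transporter of cortical and hippocampal neurons, had levels from 7.28 to 9.05 with a median of 8.08 in STR arrays, against 10.77 to 11.31 with a median of 11.08 in HAB arrays, and was higher in HAB by 7.58-fold (log2 difference -2.92 ± 0.13 SE, adjusted p = 2.22e-11). Slc17a6, the transporter of thalamic and lateral habenula neurons, ran from 6.88 to 7.96 with a median of 7.56 in STR arrays, against 9.29 to 10.88 with a median of 10.13 in HAB arrays, and was higher in HAB by 6.29-fold (log2 difference -2.65 ± 0.16 SE, adjusted p = 5.77e-10). These were the 2 called members among 8 tested genes of glutamate transport, while Slc17a8, the transporter of striatal cholinergic interneurons, had a difference in the direction of STR, 0.65 (adjusted p = 4.17e-09), below the size of a call, and the median of the 8 was -0.072. Slc17a7 was 11.53 in PFC and 8.99 in SN/VTA on average.

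Of 20 tested genes known from medial habenula neurons 10 were higher in HAB and 0 in STR, with a median of -1.34, and the list's mean per array lay between 7.20 and 7.46 in STR arrays and between 8.76 and 9.12 in HAB arrays. Tac2, which encodes neurokinin B, had levels from 8.24 to 9.07 with a median of 8.62 in STR arrays, against 11.41 to 11.79 with a median of 11.61 in HAB arrays. It separated the tissues in full, at 7.95-fold (log2 difference -2.99 ± 0.077 SE, adjusted p = 1.56e-14) higher in HAB. Pou4f1 (Brn3a), the homeobox factor that sets habenula identity, ran from 5.04 to 5.97 with a median of 5.64 in STR arrays, against 7.78 to 9.36 with a median of 8.61 in HAB arrays, a difference of 7.87-fold (log2 difference -2.98 ± 0.14 SE, adjusted p = 2.03e-11). Nwd2, a gene strongly labelled in the medial habenula, differed by -3.60 ± 0.074 (SE) and its 12 HAB arrays lay between 9.64 and 10.003. The others called were the serotonin receptor Htr5b (-2.69 ± 0.094), the orphan nuclear receptor Nr4a2 (-2.58 ± 0.12), the calcium-binding protein Calb2 (-1.74 ± 0.10), Slc17a7 and the nicotinic subunits below. Slc17a7 and Calb2 are also expressed in the cortex, hippocampus or thalamus, so they do not mark the habenula alone. Gpr151, another habenula gene, had a mean below the filter.

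The nicotinic acetylcholine receptor subunits split into a habenula group and the rest. Chrna3 had levels of 6.38, 6.59 and 6.92 in STR arrays (lowest, median and highest), against 10.22, 10.59 and 10.90 in HAB arrays. The HAB arrays lay far above all STR arrays, by 16.1-fold (log2 difference -4.01 ± 0.064 SE, adjusted p = 9.21e-17), against means of 5.87 in PFC and 8.17 in SN/VTA. Chrnb4, which assembles with Chrna3, ran from 5.83 to 6.43 with a median of 6.19 in STR arrays, against 9.01 to 9.89 with a median of 9.51 in HAB arrays, and was higher in HAB by 10.1-fold (log2 difference -3.34 ± 0.10 SE, adjusted p = 8.08e-14). Chrnb3 differed by -2.63 ± 0.10 (SE) and Chrna4 by -1.10 ± 0.14, which completes the 4 members higher in HAB among 15 tested, with 0 higher in STR and a median of -0.097. For Chrna4 the tissues overlapped, at 8.07, 8.30 and 8.45 in STR arrays (lowest, median and highest), against 8.20, 9.46 and 10.09 in HAB arrays. Its HAB level was lowest (8.20, ZT7 of the first cycle) and highest (10.09, ZT23 of the first cycle) in the arrays where the mean of the thalamus genes described below was lowest (8.27) and highest (9.73), and the part of thalamic tissue in this call was not tested. Chrna5, the neighbour of Chrna3 on chromosome 9 in the same gene cluster, had a difference of -0.10 ± 0.13 (adjusted p = 0.522) with levels near the filter, from 4.95 to 5.89 with a median of 5.54 in STR arrays, against 4.76 to 6.24 with a median of 5.60 in HAB arrays. Chrna6, the neighbour of Chrnb3 on chromosome 8 and a subunit of midbrain dopamine neurons, averaged 5.52 in STR and 5.72 in HAB, against 9.13 in SN/VTA, and its difference of -0.20 was short of a call. The remaining members ran from -0.42 for Chrna7 to 0.64 for Chrna2. Among the 5 muscarinic receptors Chrm4 was higher in STR (1.97 ± 0.10) and Chrm3 was higher in HAB (-1.09 ± 0.068).

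The promoters of Chrna3 and Chrnb4, which stand side by side on chromosome 9 and were among the genes highest in HAB relative to STR, are shown with that of Tac2. Chrna3 lies at chr9:55026513-55026812 on the minus strand of GRCm38.p6, with capitals on its GGGCGG motif (written here as its reverse complement CCGCCC). Chrnb4 lies at chr9:55048495-55048794 on the minus strand and Tac2 at chr10:127724228-127724527 on the plus strand, both with capitals on a CAGCTG motif, an E-box form of neuronal bHLH factors.
Chrna3: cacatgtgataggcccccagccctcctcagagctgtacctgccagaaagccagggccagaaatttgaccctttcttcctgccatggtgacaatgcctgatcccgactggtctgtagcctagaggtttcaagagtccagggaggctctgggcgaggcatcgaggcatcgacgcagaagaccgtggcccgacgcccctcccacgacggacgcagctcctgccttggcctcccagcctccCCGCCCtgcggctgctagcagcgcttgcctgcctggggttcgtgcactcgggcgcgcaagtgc
Chrnb4: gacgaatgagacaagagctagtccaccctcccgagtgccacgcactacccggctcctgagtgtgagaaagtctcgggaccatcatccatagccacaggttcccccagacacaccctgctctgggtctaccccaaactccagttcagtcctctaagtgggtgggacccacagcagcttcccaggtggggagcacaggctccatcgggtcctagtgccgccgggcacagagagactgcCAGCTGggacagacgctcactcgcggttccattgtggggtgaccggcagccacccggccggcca
Tac2: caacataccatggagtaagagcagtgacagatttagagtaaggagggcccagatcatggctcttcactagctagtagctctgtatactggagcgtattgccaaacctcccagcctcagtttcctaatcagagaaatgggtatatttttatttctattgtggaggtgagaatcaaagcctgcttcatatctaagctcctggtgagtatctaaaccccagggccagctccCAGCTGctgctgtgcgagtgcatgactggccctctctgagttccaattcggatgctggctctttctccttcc
The first base of the motif lay 14 bases before the RefSeq start in Chrnb4 and 22 bases before it in Tac2. The windows of Pou4f1 and of Nhlh2, itself a bHLH factor, also held CAGCTG, and that of Chrna3 held none. CAGCTG occurred in 16.3% of all promoters, in 30 of 159 genes higher in STR (18.9%), in 55 of 274 genes higher in HAB (20.1%) and in 2452 of 12941 other tested genes (18.9%), so its share among the called genes was close to that of the others. Both strands were searched for each motif.

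Of 22 tested transcription factors of the habenula and thalamus 13 were higher in HAB and 0 in STR, with a median of -1.03. Lhx9, a LIM homeobox factor of the developing thalamus, differed by 8.31-fold (log2 difference -3.05 ± 0.089 SE, adjusted p = 7.78e-14), the bHLH factor Nhlh2 by 7.14-fold (log2 difference -2.84 ± 0.058 SE, adjusted p = 1.51e-15) and the Wnt effector Tcf7l2, which is needed for thalamic and habenular differentiation, by 6.25-fold (log2 difference -2.64 ± 0.12 SE, adjusted p = 1.97e-11). Prox1 ran from 6.25 to 6.79 with a median of 6.44 in STR arrays, against 9.13 to 9.65 with a median of 9.46 in HAB arrays, with a difference of -2.96 ± 0.051 (SE). Prox1 is known both from the habenula and thalamus and from granule cells of the hippocampal dentate gyrus. Its ranges did not overlap, and its SD over the 12 paired differences was only 0.17. The genes listed for the lateral habenula did not share a direction, with 4 of 12 higher in STR (Peg10, Sst, Gap43 and Cartpt, from 1.20 to 1.36) and 3 higher in HAB (Slc17a6, Cbln2 and Chrm3, from -2.65 to -1.09). Cartpt and Sst are also peptides of striatal neurons, so they do not mark the lateral habenula here.

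**Figure D3:**
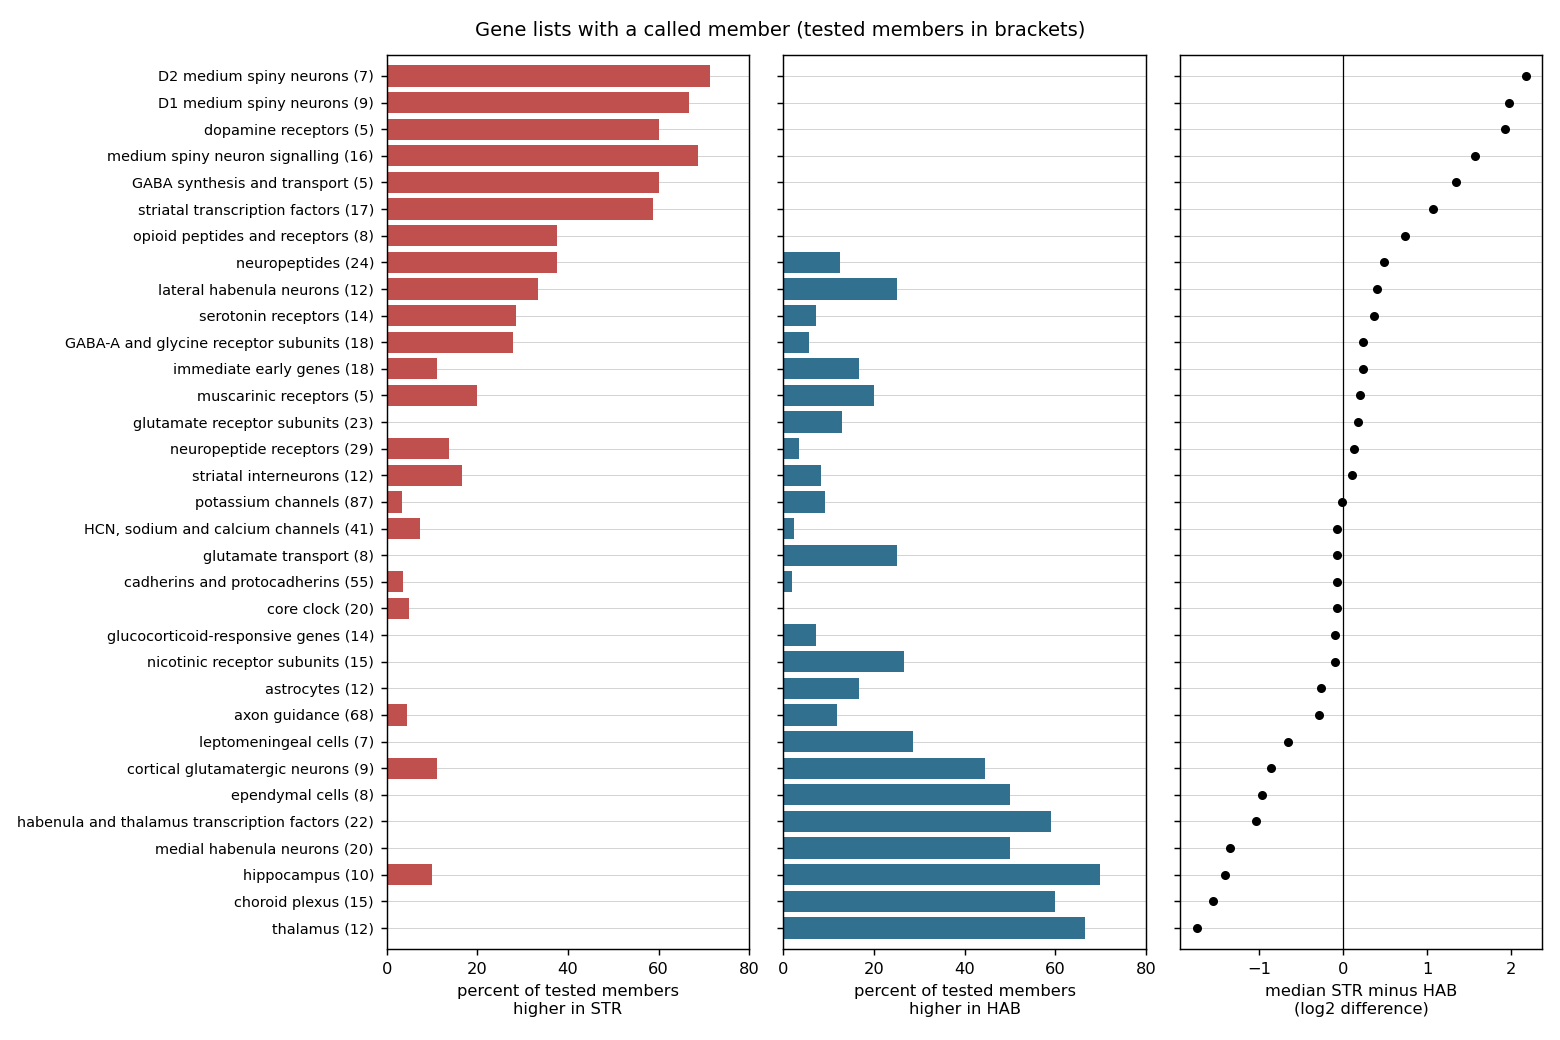
Share of the tested members of each gene list that were higher in STR (left, red) and higher in HAB (middle, blue), and the median STR minus HAB log2 difference of the list (right), for the lists with at least 1 called member, ordered by median. Medium spiny neuron, dopamine receptor and GABA lists stand at the top with medians up to 2.18, and thalamus, choroid plexus, hippocampus and habenula lists at the bottom with medians down to -1.74.

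Neuropeptides and their receptors were more often higher in STR. Of 24 tested peptide genes 9 were higher in STR and 3 in HAB, with a median of 0.49. Nts, which encodes neurotensin, ran from 7.34 to 8.58 in STR arrays, against 3.91 to 5.90 in HAB arrays, with the tissues apart and a difference of 8.56-fold (log2 difference 3.10 ± 0.15 SE, adjusted p = 4.54e-11). The 3 peptides higher in HAB were Tac2, Cck (-2.57 ± 0.11), a peptide of cortical, hippocampal and thalamic neurons, and Adcyap1 (PACAP, -1.85 ± 0.064). Tacr3, the receptor for the neurokinin B that Tac2 encodes, was higher in STR by 1.47 ± 0.088, the direction opposite to that of its ligand. Among 29 peptide receptors 4 were higher in STR (Tacr3, Trhr, Cckar and Mchr1) and 1 in HAB (Sstr2, -1.20 ± 0.058). Mchr1 stood at the edge of a call, at 0.97 to 1.045 without single pairs. Of the opioid genes 3 of 8 were higher in STR, namely Penk, Pdyn and the kappa receptor Oprk1 (1.59 ± 0.11), and 0 in HAB. The mu receptor Oprm1, known for its dense habenular expression, had a difference of -0.28 ± 0.06 (adjusted p = 0.000693), and the delta receptor Oprd1 one of 0.77 ± 0.056 (adjusted p = 5.21e-09), neither reaching the size of a call. Glp1r, the receptor for glucagon-like peptide, was among the genes highest in STR relative to HAB (2.62 ± 0.12).

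Serotonin receptors also divided. Htr1b, a presynaptic receptor of medium spiny neurons, had levels from 9.62 to 10.20 with a median of 9.995 in STR arrays, against 6.83 to 7.81 with a median of 7.10 in HAB arrays, and was higher in STR by 6.63-fold (log2 difference 2.73 ± 0.093 SE, adjusted p = 5.47e-13). Htr1d, Htr1f and Htr2a followed with differences of 1.10, 1.08 and 1.06, while Htr5b was the 1 member of 14 higher in HAB, at 6.03, 6.36 and 6.69 in STR arrays (lowest, median and highest), against 8.68, 9.08 and 9.37 in HAB arrays. With the 5 pairs whose HAB array was low for choroid plexus genes, described below, Htr1f (0.85) and Htr2a (0.97) were short of a call. Htr5b separated the tissues in full, and it averaged 6.02 in PFC and 6.15 in SN/VTA, so HAB stood apart from all the other tissues. Most ion channel and fast receptor genes were not called, but each list below had a larger called share than all genes tested (3.42%). Of 87 potassium channel genes 3 were higher in STR (among them Kcnh4, 1.76, and Kcna5, 1.60) and 8 in HAB (among them Kcnj6, -2.02, and Kcnj3, -1.40, which form G protein-gated channels), with a median of -0.0069. Of 41 HCN, sodium and calcium channel genes 3 were higher in STR and 1 in HAB, the last being Cacna1g (-1.34), the T-type channel behind burst firing of thalamic neurons. Of 18 GABA-A and glycine receptor subunits 5 were higher in STR, led by Gabrq (1.91) and Gabrg3 (1.89), and 1 in HAB, Gabra5 (-1.15). Of 23 glutamate receptor genes 3 were higher in HAB: Grm2, a presynaptic brake on glutamate release (-3.39 ± 0.053), Grin2a (-1.44 ± 0.08) and Grik4 (-1.01 ± 0.074). Grik4 stood at the edge of a call, and without single pairs its difference ran from -1.04 to -0.96. Axon guidance genes had 3 of 68 members higher in STR, led by Efnb2 (1.92), and 8 in HAB, among them Sema5a (-2.01) and Robo3 (-1.86), the receptor that lets axons cross the midline.

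Immediate early genes, which neurons switch on with activity, did not move as a block. Of 18 tested 2 were higher in STR, Egr1 (1.24 ± 0.091) and Egr2 (1.06 ± 0.095), and 3 were higher in HAB, Jun (-1.58 ± 0.069), Nptx2 (-1.47 ± 0.052) and Nr4a3 (-1.30 ± 0.10), with a median of 0.23. Of 17 ER chaperones, 10 heat shock proteins, 11 cholesterol synthesis genes and 77 respiratory chain subunits 0 were called in either direction, with medians of -0.036, -0.14, -0.37 and 0.042. Over all genes tested 3.42% were called. By the adjusted p alone 8 of the 11 cholesterol genes were higher in HAB and 0 in STR, all by less than the size of a call, led by Cyp51 (-0.58) and Sqle (-0.53). The shares of all genes by that measure were 36.4% in HAB and 31.6% in STR. Zbtb16 was the only called member of 14 glucocorticoid-responsive genes, at 6.64, 7.39 and 8.35 in STR arrays (lowest, median and highest), against 8.25, 9.06 and 9.54 in HAB arrays, a difference of -1.57 ± 0.11 with overlapping ranges.

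Markers of tissues next to the habenula were also higher in the HAB arrays. Of 12 thalamus genes 8 were higher in HAB and 0 in STR, with a median of -1.74. Prkcd, a marker of thalamic relay neurons, ran from 7.93 to 8.42 with a median of 8.21 in STR arrays, against 8.53 to 10.89 with a median of 10.18 in HAB arrays, and its paired differences ran from -2.68 to -0.24 around a mean of -1.78 ± 0.21. The list's mean per array lay between 7.41 and 7.61 in STR arrays, and between 8.27 (ZT7 of the first cycle) and 9.73 (ZT23 of the first cycle) in HAB arrays, so the HAB pools spread more widely in thalamus gene levels than the STR pools. Of 10 hippocampus genes 7 were higher in HAB and 1 in STR, Wfs1 (1.59 ± 0.13), with a median of -1.40. Dsp, Lct, C1ql2 and Prox1, which label dentate granule cells, differed by -3.02, -2.98, -2.68 and -2.96. Lct, for example, had levels of 5.27, 5.50 and 5.86 in STR arrays (lowest, median and highest), against 8.01, 8.48 and 9.23 in HAB arrays. The hippocampus list's mean was 6.90 to 7.12 in STR arrays and 8.13 to 8.88 in HAB arrays. Of 9 genes of cortical glutamatergic neurons 4 were higher in HAB (Nrn1, Neurod6, Slc17a7 and Neurod2) and 1 in STR (Lamp5, 1.61 ± 0.10). Tbr1, a cortical factor with a difference of -0.85, was short of a call over all pairs and was called with the 5 pairs whose HAB array was low for choroid plexus genes, described next (-1.06), with the second cycle alone (-1.04) and with the choroid plexus level as a covariate (-1.15). The 4 genes higher in HAB are expressed in hippocampal neurons as well. The cortical list's mean was 6.78 to 7.43 in STR arrays and 7.91 to 8.54 in HAB arrays. The part of these neighbouring tissues in the calls of neuronal genes was not tested.

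Choroid plexus genes were higher in HAB, by amounts that differed among the HAB pools. The choroid plexus makes cerebrospinal fluid, and its epithelium is the brain's main source of transthyretin (Ttr). Ttr had levels of 7.13, 7.62 and 11.79 in STR arrays (lowest, median and highest), against 10.14, 13.04 and 13.14 in HAB arrays. The 7 HAB arrays of the first cycle and of ZT15 in the second cycle had 13.02 to 13.14, the other 5 had 10.14 to 10.76, and the STR arrays stayed at or below 8.94 apart from that of ZT3 in the first cycle, at 11.79. Kl (Klotho) ran from 6.73 to 7.68 in STR arrays, against 10.75 to 11.24 in those 7 HAB arrays and 8.03 to 8.69 in the other 5. For 13 of the 15 tested choroid plexus genes the 7 arrays all lay above the 5. Over all 12 pairs 9 of the 15 were higher in HAB and 0 in STR, with a median of -1.54 (Ttr -3.97 ± 0.42, Kl -2.82 ± 0.33, Otx2 -1.90 ± 0.10). The sets of 7 and 5 pairs were formed from Ttr levels after the data were seen. Differences of choroid plexus genes between these sets thus follow in part from that choice. In the 7 pairs with a high HAB array 12 were higher in HAB and the median was -1.99. In the 5 pairs with a low one 3 were higher in HAB (Ttr -2.60, Otx2 -1.48 and Kl -1.33), 1 was higher in STR, and the median was -0.41. That 1 was Clic6, a chloride channel protein, which had 5.50 to 5.77 in the 5 low HAB arrays, 7.48 to 8.14 in the 7 high ones and 6.81 to 7.22 in STR arrays. Its difference was therefore 1.34 ± 0.086 SE in the 5 pairs, -0.84 ± 0.087 in the 7 pairs and 0.068 over all 12. With the mean of these 15 genes as a covariate, Ttr (-1.36) and Otx2 (-1.25) kept their calls in HAB and Clic6 was called in STR (1.95), while Slc4a5, a bicarbonate transporter (0.72, against -1.64 without the covariate), and F5, a coagulation factor (0.63, against -1.81), changed sign.

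**Figure D4:**
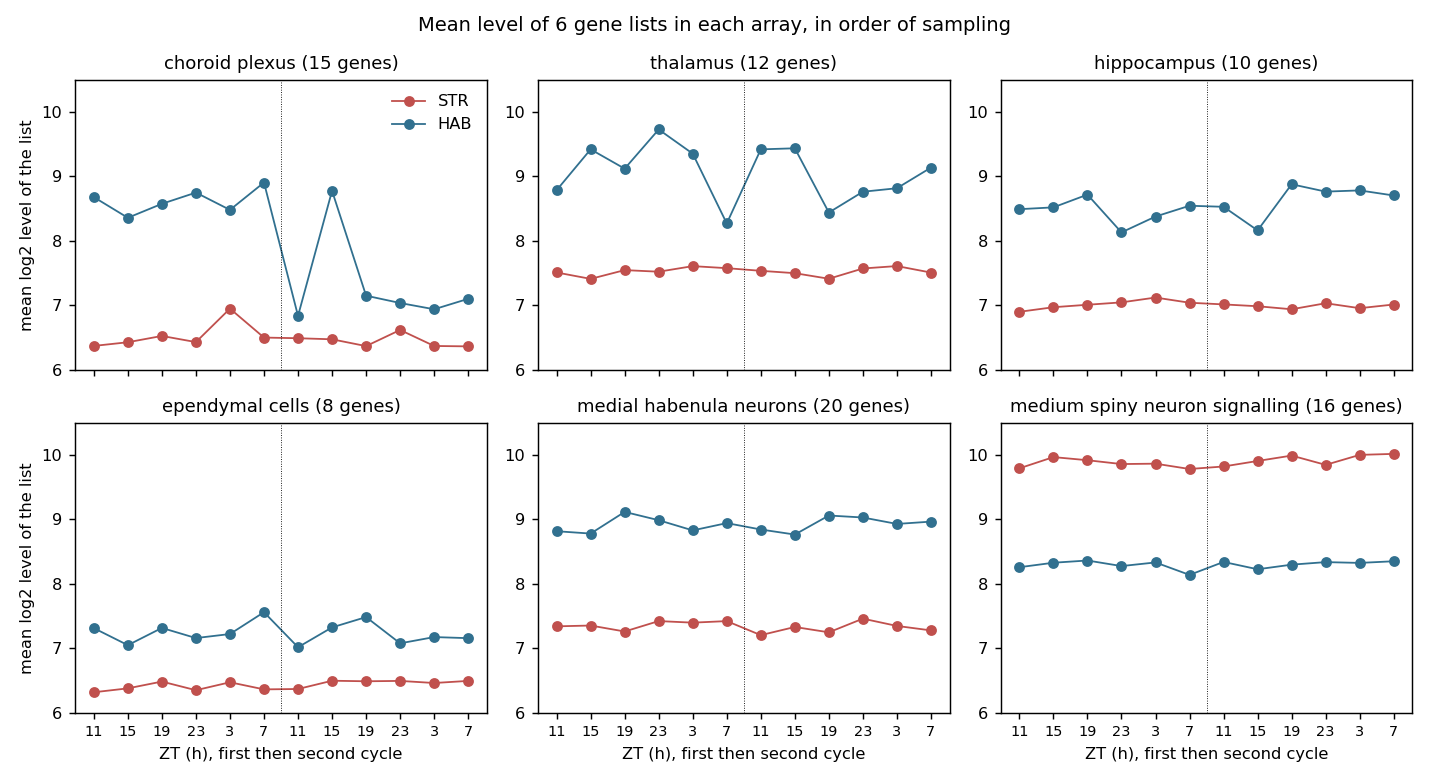
Mean log2 level of 6 gene lists (vertical axis) in each STR array (red) and HAB array (blue) in the order of sampling, with ZT on the horizontal axis and a dotted line between the first and the second cycle. The choroid plexus list falls to 6.83 to 7.15 in 5 second-cycle HAB arrays and exceeds 8.3 in the other 7, the thalamus list varies between 8.27 and 9.73 in HAB, and the habenula and medium spiny neuron lists keep to narrow bands.

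Most calls of each set of pairs were also made with all 12 pairs. The 12 pairs include each set, so part of this overlap was built in, and the calls of the 2 sets were not matched with each other. With the 5 low pairs alone 566 genes were called, of which 511 were also called with all 12 pairs, or 86.5% of those 591 and 90.3% of the 566. With the 7 high pairs 627 were called, of which 555 were shared, or 93.9% of the 591 and 88.5% of the 627. The medial habenula list had 10 of 20 members higher in HAB in both subsets, the direct-pathway and indirect-pathway lists had 6 and 5 members higher in STR in both, and the nicotinic list had 4 members higher in HAB in both. The habenula and thalamus factors had 10 of 22 called with the 5 pairs and 14 with the 7. Ependymal genes, of the ciliated lining of the ventricles, had 4 of 8 members higher in HAB over all pairs (Ak7, Tmem212, Dynlrb2 and Hydin, from -1.18 to -1.04), 3 with the 5 pairs and 4 with the 7. Hydin was short of a call, at -0.99, without the ZT7 pair of the first cycle. Pineal genes were not called in either direction (0 of 3 tested, Aanat 0.23, Tph1 -0.13 and Asmt -0.0069).

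Most members of the glial and vascular lists were not called, and 3.42% of all genes tested were called. The astrocyte and leptomeningeal lists had larger called shares than that. Of 12 astrocyte genes 2 were higher in HAB, Gfap (-1.44 ± 0.09) and the water channel Aqp4 (-1.12 ± 0.05), and 0 in STR. Oligodendrocyte genes (12 tested), their precursors (5), microglia (11), endothelial (9) and mural cells (5) had 0 members called in either direction, with medians of -0.012, 0.026, 0.27, -0.40 and -0.44. With 3.42% of all genes called, 0 is a common count for lists of 5 to 12 genes. By the adjusted p alone 9 of the 12 astrocyte genes, 7 of the 9 endothelial genes and 3 of the 5 mural genes were higher in HAB, with 0, 2 and 1 higher in STR. Over all genes tested this measure gave 36.4% higher in HAB and 31.6% higher in STR. By the same measure 8 of the 11 microglia genes were higher in STR and 0 in HAB, with the largest difference, that of Tmem119, at 0.49. Of 7 leptomeningeal genes 2 were higher in HAB, Dcn (-1.43 ± 0.13) and Lum (-1.16 ± 0.16), while by the adjusted p alone all 7 were, and this list's mean reached 8.62 in one HAB array against a median of 8.12. Lum was short of a call (-0.61) with the 5 pairs whose HAB array was low for Ttr. The part of the covering membranes in these values was not tested.

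Set beside the other tissues, most called genes had their higher tissue above PFC and SN/VTA too. Of the 222 genes higher in STR, 174 (78.4%) had a STR mean above both the PFC and the SN/VTA mean, and for 121 HAB was the lowest of the 4 tissues. Of the 369 genes higher in HAB, 261 (70.7%) had a HAB mean above both, and for 207 STR was the lowest of the 4. Drd1, for instance, averaged 9.50 in STR and 5.53 in HAB, and 6.78 in PFC and 5.44 in SN/VTA. Nrn1, among the genes with the largest negative differences, averaged 7.68 in STR and 11.15 in HAB, and 11.27 in PFC and 10.10 in SN/VTA, so that here STR was the tissue that stood apart. These are levels side by side, with no test against PFC or SN/VTA. The genes were chosen for a higher level in one tissue, which by itself favours that tissue as the highest of the 4. The same shares were not counted over all genes tested.

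The difference between the tissues was then asked of each time of day. With the 2 pairs of each time in a common fit, the number of genes higher in STR was 226 at ZT3 (1.31%), 246 at ZT7 (1.42%), 265 at ZT11 (1.53%), 245 at ZT15 (1.42%), 249 at ZT19 (1.44%) and 242 at ZT23 (1.4%). The number higher in HAB was 327 (1.89%), 414 (2.4%), 363 (2.1%), 408 (2.36%), 394 (2.28%) and 381 (2.21%) at the same times. At all 6 times 130 genes were higher in STR and 207 higher in HAB, or 337 of the 591 called over the day. The difference of Drd1 was 3.65 at ZT3, 3.86 at ZT7, 4.002 at ZT11, 4.18 at ZT15, 3.97 at ZT19 and 4.16 at ZT23. That of Chrna3 was -3.85 at ZT3, -4.11 at ZT7, -4.003 at ZT11, -3.76 at ZT15, -4.32 at ZT19 and -4.04 at ZT23. Both kept their sign at all 6 times. The median of the range over the 6 times was 0.49 over the 591 called genes and 0.35 over all genes tested. The SD of a gene's 12 paired differences had a median of 0.27 over the called genes, and 7 of them had one above 1.

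A change of the difference over the day was tested by a 24-h cosine of the tissue difference. Of 17274 genes 0 passed the adjusted threshold in limma, with 900 (5.21%) under an unadjusted p of 0.05. Among the lists, the oligodendrocyte genes had 7 of 12 under that unadjusted threshold and the choroid plexus genes 0 of 15. The oligodendrocyte list's mean in HAB was 9.61 at ZT11 and 9.58 at ZT7 of the first cycle. At those times of the second cycle it was 8.98 and 9.01, and STR arrays had 9.01 to 9.22. The high HAB values of ZT7 and ZT11 thus did not repeat between the cycles. At ZT15 the list's mean in HAB was 9.23 in the first and 9.39 in the second cycle, both above the STR arrays. The part of uneven oligodendrocyte content in this count was not tested. The contrast of the dark times with the light times also gave 0 genes, with 791 (4.58%) under the unadjusted threshold. The smallest p belonged to Slc3a1, an amino acid transporter subunit, whose difference followed a cosine with an amplitude of 0.33 ± 0.052 SE (limma, adjusted p = 0.928), and to Il33, an alarmin of glial nuclei, with an amplitude of 0.45 ± 0.078 (adjusted p = 0.928). Neither is a call, and an amplitude below the threshold does not show that the tissues keep the same rhythm.

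Of the clock genes, Ciart, Nr1d1 and Dbp passed for a rhythm in both tissues. Cells run a loop in which Arntl with Clock or Npas2 switches on Per, Cry, Nr1d and Ciart genes, whose proteins then hold Arntl and its partners back. In STR alone 3 of 17274 genes (0.0174%) passed for a 24-h rhythm in limma, with 1467 (8.49%) under an unadjusted p of 0.05. In HAB alone 3 (0.0174%) passed, with 1089 (6.3%) under the unadjusted threshold, and in both tissues the genes were Ciart, Nr1d1 and Dbp. Ciart, a repressor of Arntl, had an amplitude (mean to peak, log2) of 0.75 ± 0.072 SE with a peak at ZT10.5 in STR (adjusted p = 0.0034), against 0.64 ± 0.076 with a peak at ZT11.5 in HAB (adjusted p = 0.032). Nr1d1 (REV-ERB alpha) had 0.41 ± 0.043 with a peak at ZT8.2 in STR (adjusted p = 0.0060), against 0.46 ± 0.048 with a peak at ZT7.5 in HAB (adjusted p = 0.0139). Dbp, an output factor of the clock, had 0.40 ± 0.048 in STR (adjusted p = 0.0219) against 0.54 ± 0.056 in HAB (adjusted p = 0.0139), with a peak at ZT11.0 in both. The amplitude of the difference was 0.20 ± 0.086 for Ciart (adjusted p = 0.951 in limma), 0.088 ± 0.058 for Nr1d1 (adjusted p = 0.972) and 0.15 ± 0.073 for Dbp (adjusted p = 0.951), and none of these differences between the tissues' rhythms passed even the unadjusted threshold.

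**Figure D5:**
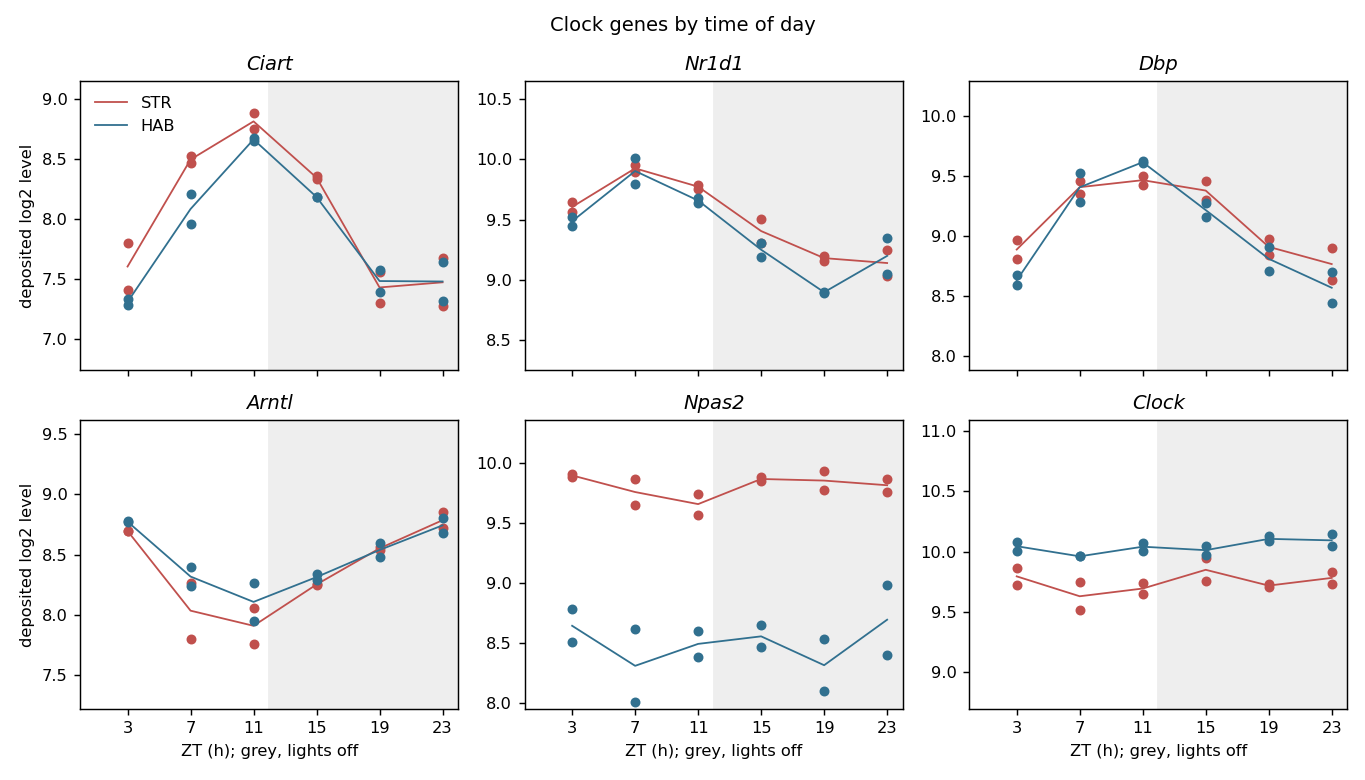
Deposited log2 levels (vertical axis) of 6 clock genes by ZT (horizontal axis; grey, lights off) in STR (red) and HAB (blue); points, single arrays; lines, means of the 2 arrays of a time. Ciart, Nr1d1 and Dbp peak in the second part of the light phase in both tissues and Arntl peaks around ZT23, while Npas2 is higher in STR at all times and every STR point of Clock lies below every HAB point.

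A rhythm fitted as common to both tissues, an alternative added after the data were seen, gave 73 genes (0.423%). This fit had no pair block, so the STR and HAB pools of a time, which may hold the same mice, counted as separate samples. Of the 20 tested clock genes 9 were among them. Arntl (amplitude 0.39 ± 0.041) had its peak at ZT23.2 and Nr1d1 (0.43 ± 0.031) at ZT7.8, with Per3 (0.30 ± 0.034) at ZT13.5 and Per1 (0.22 ± 0.037) at ZT12.2. Of 17 ER chaperones 6 were among the 73, with peaks from ZT18.1 to ZT20.4, led by Sdf2l1 with 0.39 ± 0.064. Of 14 glucocorticoid-responsive genes 5 were among them, with peaks from ZT9.5 to ZT13.2. Named after their values were seen, Fabp7, which carries lipids in astrocytes, had its peak at ZT3.1 (0.36 ± 0.036) and Cirbp, an RNA-binding protein induced by cold, at ZT8.4 (0.32 ± 0.035). Of 18 immediate early genes 0 were among the 73. Of the 73 genes 6 had an unadjusted p under 0.05 for a difference between the tissues, against 5.21% of all genes. Hspa5, the ER chaperone BiP, was one of these 6, with an amplitude of 0.19 ± 0.069 in STR and 0.40 ± 0.064 in HAB (limma, adjusted p = 0.936). Sdf2l1 was another, with 0.25 ± 0.072 in STR and 0.53 ± 0.088 in HAB (adjusted p = 0.941). So was Arntl, with 0.45 ± 0.061 in STR and 0.33 ± 0.048 in HAB (adjusted p = 0.951). Of the 17 ER chaperones 4 were under the unadjusted threshold for a difference.

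The promoter of Ciart is shown because, of the 3 genes that passed for a rhythm in each tissue, this one had the largest amplitude in both, and because its window repeats the letters of the E-box, the motif that Arntl and its partners are known to bind. It lies at chr3:95882179-95882478 on the minus strand of GRCm38.p6, with capitals on its 3 CACGTG motifs.
Ciart: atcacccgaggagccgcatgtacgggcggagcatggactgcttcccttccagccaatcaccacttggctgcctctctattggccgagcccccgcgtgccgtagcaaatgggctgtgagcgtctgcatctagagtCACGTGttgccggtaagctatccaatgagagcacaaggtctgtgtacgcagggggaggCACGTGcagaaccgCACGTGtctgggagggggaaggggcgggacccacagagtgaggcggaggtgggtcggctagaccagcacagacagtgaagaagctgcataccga
CACGTG occurred in 7.2% of all promoters, and 0 times in the windows of Nr1d1 and Dbp. The Ciart window also held 2 GGGCGG motifs, left in lower case.

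The partners of Arntl differed in level between the tissues. Npas2 had levels from 9.57 to 9.93 with a median of 9.85 in STR arrays, against 8.01 to 8.99 with a median of 8.52 in HAB arrays, and was higher in STR by 2.47-fold (log2 difference 1.30 ± 0.069 SE, adjusted p = 1.3e-10), as the 1 called member of 20 clock genes. It was higher in STR in all 12 pairs, with differences of 1.25 at ZT3, 1.44 at ZT7, 1.16 at ZT11, 1.31 at ZT15, 1.53 at ZT19 and 1.12 at ZT23. Clock, which takes the same place beside Arntl, ran from 9.51 to 9.94 with a median of 9.73 in STR arrays, against 9.96 to 10.14 with a median of 10.04 in HAB arrays, with every STR array below every HAB array, but its difference of -0.30 ± 0.041 (adjusted p = 8.75e-06) was short of the size of a call. Npas2 averaged 9.41 in PFC and 8.48 in SN/VTA, and Clock 10.80 in PFC and 10.18 in SN/VTA. Neither passed for a rhythm in either tissue (adjusted p from 0.813 to 0.966). Bhlhe40 (-0.80 ± 0.061), Rora (-0.97 ± 0.11) and Rorb (-0.58 ± 0.086) had differences towards HAB below the size of a call, and Rora, which also belongs to the thalamus list, reached it without the ZT7 pair of the first or the ZT19 pair of the second cycle (-1.02 and -1.04). The mean levels of Ciart, Nr1d1, Dbp, Arntl, Cry1 and Cry2 differed between the tissues by -0.094 to 0.16.

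The 2 sampling cycles gave different tissue differences for 1 gene, Cox8b, which encodes a subunit of cytochrome oxidase. Its level averaged 5.12 in STR and 5.14 in HAB in the second cycle, and 4.89 in STR and 5.97 in HAB in the first, so that the STR minus HAB difference was 1.05 ± 0.11 SE higher in the second cycle (adjusted p = 0.0017 in limma, with 1 gene called or 0.00579%, and 1173 or 6.79% under an unadjusted p of 0.05). In HAB arrays Cox8b was split as the choroid plexus genes were, at 5.70 to 6.41 in the 7 arrays high for Ttr and 4.84 to 5.21 in the 5 low ones. Its levels in the 5 low HAB arrays and in STR arrays (median 4.98) lay near the filter level of 5.05. Of the 15 choroid plexus genes 14 had an unadjusted p under 0.05 for the cycle and 0 passed the adjusted threshold. Without the ZT15 pair of the second cycle, whose HAB array was high for Ttr, 104 genes were called (0.602%), 101 of them with a higher and 3 with a lower STR minus HAB difference in the second cycle, and 11 of the 15 choroid plexus genes were among them. The part of choroid plexus content in these counts cannot be told apart from the sampling cycle, since 5 of the 6 second-cycle HAB arrays and 0 of the 6 first-cycle ones were low for Ttr.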

How the data were processed

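RNA of 12 striatum and 12 habenula pools was measured on Affymetrix Mouse Gene 2.0 ST arrays, and only the authors' series matrix was used. The deposited values were read as log2 levels of probe sets because of their range (1.09 to 13.7). Software, background correction and normalization behind them: not given in the sources used here. Of 41345 rows 23521 had a single gene symbol in the platform annotation, 1814 had several and 16010 had none. The brightest row stood for each of 22180 genes, and genes at or above the 30th percentile of the mean over 48 arrays (5.05) were tested. limma 3.58.1 in R 4.3.3 gave paired fits of STR minus HAB, with p-values adjusted by the Benjamini-Hochberg method over all genes tested. The same fits were tested on simulated data. The 24-h cosine, dark-light and cycle contrasts were fitted to the same pairs. Rhythms within a tissue were fitted to its 12 arrays with an F test of a 24-h cosine and sine. Genes named were the 15 highest and 15 lowest differences among called genes with 1 sign in all pairs (predicted genes, such as Gm5741, passed over), up to 6 members of each list by size (all members of the nicotinic, muscarinic, dopamine receptor, opioid, GABA synthesis, choroid plexus and clock lists, some given only by count or range), and the 10 smallest p for the cosine. Genes outside this rule are said to be so in the text. The members and lists were chosen with earlier results of these data known. Alternatives covered scaling, filter, rows, pairing, samples and prior. Promoters are from RefSeq (GRCm38.p6, 13374 tested genes matched by symbol); no coordinates were taken from the files. The 2 pools of a tissue and time came from different mice, killed a day apart.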

Additional observations from a re-analysis of the deposited data

Results flagged for a closer look

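The STR minus HAB difference of Cox8b was 1.051 higher on the log2 scale in the second than in the first sampling cycle, and it was the only gene of 17274 whose difference changed between the cycles by limma's paired test (adjusted p = 0.0017). It was listed because the 2 cycles differed in this test. The STR arrays ran from 4.75 to 5.50 in the second cycle and from 4.67 to 5.17 in the first, so the ranges overlapped. These levels lay near the filter level of 5.05. The HAB array of ZT15 in the second cycle, the only one of that cycle high for Ttr, had 5.70, next to the first cycle's HAB arrays (up to 6.41), while the other 5 of the second cycle had at most 5.21. Without the replicate block, and with the choroid plexus level as a covariate, the change in Cox8b did not pass. The part of choroid plexus content in this value was not tested further.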

How the results depend on the processing

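The counts of 222 genes higher in STR and 369 higher in HAB were recomputed under 26 alternatives. Without a replicate block they were again 222 and 369, and the same 591 genes were called. Same-numbered STR and HAB arrays deviated together with r of only -0.021 to 0.11 over the 6 times, so the numbers are shared without a sign of pairing, and no blocked count of calls at a time differed by over 1.5 times. Leaving out each pair in turn gave 215 to 233 genes higher in STR and 344 to 415 higher in HAB when the single cycles are included, and 0 genes throughout for the cosine and for the dark-light contrast. limma's treat test against a difference of 1 gave 127 and 195, and ended the calls of 31 of the genes followed, all with a difference under 1.81 in size, among them F5, Sostdc1, Slc4a5, Dcn, Cacna1g, Nr4a3, Gap43, Egr1, Egr2, Cartpt, Chrna4, Chrm3 and Aqp4. Centring each array on its median gave 603 calls, of which 33.5% were higher in STR, and quantile normalization 581, of which 40.6% were, against 37.6% as reported. With the choroid plexus level as a covariate 581 genes were called, 487 of them among the 591, and the median of the glutamate receptor genes turned to -0.012. That covariate, itself the mean of the choroid plexus genes, ended the calls of Slc4a5 (0.72) and F5 (0.63), which changed sign, and of Kl (-0.42), Sostdc1 (-0.19), Slc13a4 (-0.52), Lbp (-0.48), Calml4 (-0.42), Lum (-0.33), Dynlrb2 (-0.65), Htr1f (0.70), Hydin, Ak7, Htr2a, Mchr1, Grik4 and Zic1, and added those of Clic6 and Tbr1. The mean of all rows of a gene ended those of Hydin (-0.49), Kcnj3 (-0.87) and Cdh4 (0.88), and the second cycle alone those of 9 (F5 at -0.75, Slc4a5 at -0.62, Dynlrb2, Grik4, Htr1d, Htr1f, Htr2a, Lum and Mchr1), while Tbr1 was added.

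The cycle contrast depended on the setting: 1 gene as reported, 0 with no replicate block, 0 with the choroid plexus covariate, 3 with a trended and robust prior, 1 to 104 when a pair was left out (104 without ZT15 of the second cycle, 2 without ZT23 of the first), and 93 without the pairs of ZT3 in the first and ZT15 in the second cycle, an alternative added after the data were seen. A rhythm common to both tissues, also added then, gave 73 genes in place of 3 in STR and 3 in HAB, over 24 arrays instead of 12 and without a pair block. Leaving out 1 pair moved the call of Grik4 (6 pairs: ZT3, 7, 11 and 15 of the first and ZT15 and 23 of the second cycle). It also moved those of Mchr1 (4 pairs: ZT3 and 15 of the first and ZT15 and 19 of the second) and Cdh4 (3 pairs: ZT7 of the first and ZT3 and 23 of the second). The others moved were Hydin, Rora, Col8a1 (-1.01 and -1.04 without ZT23 and ZT3 of the second cycle) and Folr1 (-1.01 without ZT11 of the second). Of the genes followed no other moved. Among the genes followed, which are those named and all members of the lists named in full, no called difference changed sign apart from Slc4a5 and F5.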

Other observations

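Some of the genes with the largest differences belong to none of the gene lists. Sh3rf2, a scaffold protein with ubiquitin ligase activity, ran from 8.34 to 8.88 with a median of 8.73 in STR arrays, against 5.49 to 6.25 with a median of 5.84 in HAB arrays, and was higher in STR by 7.11-fold (log2 difference 2.83 ± 0.10 SE, adjusted p = 5.22e-13). Clec12a, an inhibitory lectin receptor known from myeloid cells, was higher in STR by 7.12-fold (log2 difference 2.83 ± 0.12 SE, adjusted p = 7.43e-12), with means of 4.60 in PFC and 4.66 in SN/VTA, while 0 of the 11 microglia genes were called. Both genes had every STR array above every HAB array. In the other direction, Prdm8, a transcriptional repressor of cortical projection neurons, had a difference of 10.4-fold (log2 difference -3.37 ± 0.13 SE, adjusted p = 2.3e-12) and means of 9.77 in PFC and 7.98 in SN/VTA. Cpne9, a calcium-dependent membrane-binding protein, had a difference of 9.53-fold (log2 difference -3.25 ± 0.063 SE, adjusted p = 9.16e-16) and means of 9.34 in PFC and 9.75 in SN/VTA, so STR was the lowest of the 4 tissues for both genes. Of 55 cadherins and protocadherins 2 were higher in STR, Cdh4 (1.03 ± 0.091) and Pcdh11x (1.06 ± 0.04), and 1 in HAB, Pcdh20 (-2.04 ± 0.093), with a median of -0.073. Pcdh11x was just short of a call with the 7 pairs whose HAB array was high for choroid plexus genes (0.999) and with the first cycle alone (0.996). Cdh4 stood at the edge of a call, at 0.98 to 1.095 without single pairs.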
